A study of Homo sapiens with 2 samples.

Results

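The genes described here encode the nuclear effectors of Hippo signalling, taken from a list of 8 named genes: the coactivators YAP1 and WWTR1 (the gene of TAZ), the DNA-binding factors TEAD1, TEAD2, TEAD3 and TEAD4, and the TEAD cofactors VGLL3 and VGLL4. Of the 8, 7 had a row in both libraries among the 28303 genes listed. VGLL3 was not analysed here. The members were found by matching names to Ensembl identifiers, a rule that uses no measured value, although the list was drawn up with earlier results of these data known. The samples were 2 libraries from HGC27 cells at passage 4-6, an established line of human gastric cancer. Cells of the first library were transfected with pcDNA3.1-linc01133, an expression plasmid for the long non-coding RNA LINC01133, and cells of the second with the pcDNA3.1-control plasmid. Both were harvested 48 h after transfection with the reagent Turbofect, and no other treatment is given by the labels. Each group held 1 library, so no difference below has a replicate check and none was tested.

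YAP1 and TAZ carry no DNA-binding domain of their own and act on genes by binding TEAD factors, which recognise DNA through the TEA domain. When the Hippo kinases are active, LATS1 and LATS2 phosphorylate YAP1 and TAZ, which are then held in the cytoplasm by 14-3-3 proteins or degraded. VGLL4 binds TEAD factors through short Tondu motifs and competes with YAP1 for them. In gastric cancer the pathway is known for the growth-promoting role of YAP1 and for VGLL4 as its antagonist. Published work on LINC01133 in this cancer includes work on YES1, miR-145-5p and the nuclear entry of the YAP1 protein. RNA levels such as those reported here do not measure where a protein is or whether it is phosphorylated.

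The 4 TEAD genes share a long stretch of their DNA-binding part residue for residue, yet write it with different codons. The stretch is shown because base composition is set beside the levels further on. The longest run of residues that all 4 translated proteins share is 70 residues and lies in the TEA domain. It starts at residue 30 in TEAD1, 40 in TEAD2, 30 in TEAD3 and 38 in TEAD4. The 210 bases that encode it are printed 5′ to 3′ from the GENCODE 29 transcripts, with capitals for each G or C at the third codon position.
TEAD1: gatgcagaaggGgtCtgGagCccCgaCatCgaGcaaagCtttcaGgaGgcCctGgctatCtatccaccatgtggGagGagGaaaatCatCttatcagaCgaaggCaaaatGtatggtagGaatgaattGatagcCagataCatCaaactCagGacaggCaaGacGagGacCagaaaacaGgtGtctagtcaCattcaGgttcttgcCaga
TEAD2: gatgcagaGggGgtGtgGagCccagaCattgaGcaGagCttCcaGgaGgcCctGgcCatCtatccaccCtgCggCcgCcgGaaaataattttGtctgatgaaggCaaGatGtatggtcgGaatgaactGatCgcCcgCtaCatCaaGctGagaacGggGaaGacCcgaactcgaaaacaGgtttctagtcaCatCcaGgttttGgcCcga
TEAD3: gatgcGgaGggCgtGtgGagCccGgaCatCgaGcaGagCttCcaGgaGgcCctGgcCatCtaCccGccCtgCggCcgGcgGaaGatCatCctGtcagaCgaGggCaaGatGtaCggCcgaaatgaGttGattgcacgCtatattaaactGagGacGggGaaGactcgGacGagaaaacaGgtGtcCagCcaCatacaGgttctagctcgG
TEAD4: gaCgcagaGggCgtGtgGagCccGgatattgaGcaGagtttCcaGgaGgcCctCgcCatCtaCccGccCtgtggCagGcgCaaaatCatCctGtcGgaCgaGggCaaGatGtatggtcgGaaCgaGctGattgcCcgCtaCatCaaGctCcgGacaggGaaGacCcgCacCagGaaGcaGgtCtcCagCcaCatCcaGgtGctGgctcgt
For the same 70 residues, 39 codons of TEAD1 end in G or C, against 44 in TEAD2, 54 in TEAD3 and 58 in TEAD4. GC content over the stretch was 48.6% in TEAD1, 54.3% in TEAD2, 59.0% in TEAD3 and 61.4% in TEAD4. Over the whole coding sequence, 52.5% of the third codon positions were G or C in TEAD1, against 71.7% in TEAD2, 80.3% in TEAD3 and 76.8% in TEAD4. TEAD1 and TEAD4 had 323 identical residues among 421 aligned (76.7%), and 183 of those 323 were written with another codon. TEAD3 and TEAD4 had 308 identical among 423 (72.8%), of which 132 used another codon.

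LINC01133 checked the labels. It had 1.44 FPKM (95% counting interval 1.13 to 1.81) in the library labelled overexpression and 0.0809 FPKM (0.0220 to 0.207) in the control library, with 74 fragments in the first and 4 in the second. Its level was thus low in both, and its mean lay below 1 FPKM, the filter used further on. FPKM means fragments per length of exon and per counted fragment of the library, which puts the levels of different genes on the same scale. It does not correct for base composition, and a comparison between genes also depends on the exon length used. The libraries held 16302581 counted fragments with overexpression and 15666629 in the control. Intervals throughout cover counting error only. Of the markers of the labelled cell type, 0 of 7 epithelial and 0 of 5 gastric genes with a row reached a mean of 1 FPKM. The epithelial markers summed to 1.78 FPKM with overexpression and 2.06 in the control, with KRT18 listed at 0 in both, and the gastric markers to 0.324 FPKM with overexpression and 0.220 in the control, with MUC5AC and TFF2 at 0 in both. Of 7 mesenchymal markers, 6 passed, with sums of 275 FPKM with overexpression and 252 in the control.

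Both coactivator genes were higher with LINC01133 overexpression, though WWTR1 was not once a trend on GC content, described further on, was subtracted (log2 ratio -0.081). YAP1 (ENSG00000137693, chr11:102110461-102233423 on GRCh38, plus strand) had 16.95 FPKM (16.2 to 17.8) in the overexpression library and 7.94 FPKM (7.39 to 8.51) in the control, with 1740 fragments behind the first and 783 behind the second. This is a ratio of 2.14 (1.96 to 2.33), and the intervals of the 2 levels did not overlap. In bulk RNA such as this, more cells with the message and more message per cell cannot be told apart. WWTR1 (ENSG00000018408, chr3:149517235-149736714, minus strand) had 5.48 FPKM (5.10 to 5.89) with overexpression and 3.32 FPKM (3.01 to 3.64) in the control, a ratio of 1.65 (1.47 to 1.86). YAP1 was the more abundant coactivator in both libraries. It exceeded WWTR1 by 3.09-fold (2.84 to 3.37) with overexpression and by 2.39-fold (2.13 to 2.70) in the control. The first of these exceeded the second by 1.29 times (1.11 to 1.496), so YAP1 stood further above WWTR1 in the overexpression library by more than counting error. YAP1 made up 75.6% of the summed coactivator level with overexpression and 70.5% in the control. A gene on the other strand covers 9.97% of the exon bases of YAP1, and WWTR1-AS1 covers 9.45% of those of WWTR1. The labels do not say whether strand was used in counting, so fragments of antisense partners cannot be told apart there. WWTR1-AS1 itself was listed with 4 fragments in the overexpression library and 5 in the control.

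**Figure D1:**
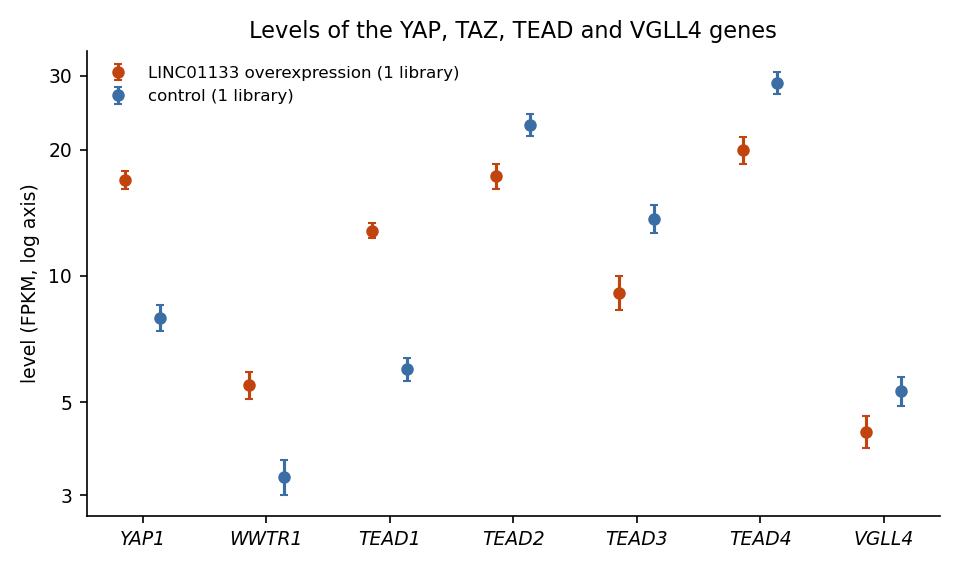
Level of each gene in FPKM (log axis) in the LINC01133 overexpression library (left point of each gene) and the control library (right point), with exact 95% Poisson intervals of the fragments as bars. YAP1, WWTR1 and TEAD1 lie higher with overexpression, and TEAD2, TEAD3, TEAD4 and VGLL4 lie lower. The signs of the log2 ratios of WWTR1 and TEAD2 turned when the GC content trend was subtracted, and TEAD2 stayed below the median over all genes.

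TEAD1 was the one TEAD gene higher with overexpression, while the other 3 were lower. After subtraction of the GC content trend the log2 ratio of TEAD1 was 0.36. Those of TEAD2, TEAD3 and TEAD4 were 0.030, -0.094 and -0.057. The sign of TEAD2 turned, but TEAD2 stayed below the median over all genes, which the subtraction left at 0.096. TEAD1 (ENSG00000187079, chr11:12674591-12944483, plus strand) had 12.8 FPKM (12.3 to 13.4) in the overexpression library and 6.00 FPKM (5.63 to 6.39) in the control, with 2150 and 966 fragments in that order, a ratio of 2.14 (1.98 to 2.31). TEAD2 (ENSG00000074219, chr19:49340595-49362457, minus strand) had 17.3 FPKM (16.1 to 18.5) with overexpression and 22.9 FPKM (21.6 to 24.3) in the control, a ratio of 0.754 (0.688 to 0.827). TEAD1 is known from heart and skeletal muscle and TEAD2 from the early embryo. TEAD3 (ENSG00000007866, chr6:35473597-35497076, minus strand), known from placenta, had 9.10 FPKM (8.28 to 9.98) with overexpression and 13.7 FPKM (12.6 to 14.8) in the control, a ratio of 0.666 (0.590 to 0.752). TEAD4 (ENSG00000197905, chr12:2959330-3040673, plus strand), a factor of the trophoblast that is often studied in gastric cancer, had 19.95 FPKM (18.5 to 21.4) with overexpression and 28.9 FPKM (27.1 to 30.7) in the control, a ratio of 0.692 (0.628 to 0.761). Between TEAD2, TEAD3 and TEAD4 no difference in the ratio of overexpression to control was seen beyond counting error. The ratio between the genes with overexpression, divided by that in the control, was 1.13 (0.972 to 1.32) for TEAD2 over TEAD3, 1.09 (0.955 to 1.246) for TEAD2 over TEAD4 and 0.963 (0.824 to 1.13) for TEAD3 over TEAD4. Each of these 3 intervals holds 1, which bounds the differences and does not show that they are absent. TEAD1 differed from each of the other 3. Its level relative to TEAD4 was 0.643 (0.591 to 0.700) with overexpression and 0.208 (0.190 to 0.227) in the control, a 3.09-fold difference (2.73 to 3.498). Relative to TEAD2 it differed by 2.84-fold (2.51 to 3.196) and relative to TEAD3 by 3.21-fold (2.78 to 3.71). Such a ratio between genes within a library does not depend on how the libraries are scaled. With the GC content trend subtracted, the differences were 1.38-fold for TEAD4, 1.30-fold for TEAD2 and 1.42-fold for TEAD3. In TEAD2, 10.7% of the exon bases are shared with CD37 on the other strand, and in TEAD1, TEAD3 and TEAD4 none are shared with another gene.

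The make-up of the TEAD pool differed accordingly. TEAD1 supplied 21.7% of the summed TEAD level with overexpression and 8.40% in the control, a difference of 13.3 percentage points. TEAD4 supplied 33.7% with overexpression and 40.4% in the control. TEAD2 supplied 29.2% with overexpression and 32.1% in the control, and TEAD3 15.4% with overexpression and 19.1% in the control. TEAD4 was the largest contributor in both libraries, and TEAD1, the smallest in the control, passed TEAD3 in the overexpression library. The summed TEAD level was 59.2 FPKM with overexpression and 71.4 FPKM in the control, a ratio of 0.828, while the summed level of YAP1 and WWTR1 was 22.4 FPKM with overexpression and 11.3 FPKM in the control, a ratio of 1.99. There were 0.379 coactivator FPKM for each TEAD FPKM with overexpression and 0.158 in the control, a 2.41-fold difference. With the GC content trend subtracted, this difference was 1.37-fold, and the share of TEAD1 with overexpression was 11.1%.

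**Figure D2:**
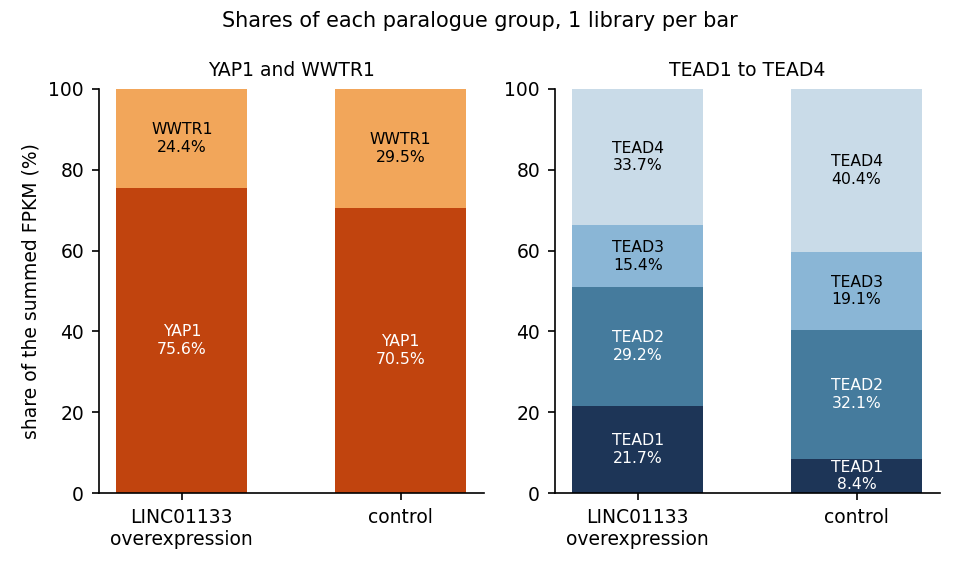
Share of the summed FPKM (%) held by each gene of a paralogue group, in the LINC01133 overexpression library (left bar) and the control library (right bar). TEAD1 holds 21.7% of the TEAD level with overexpression and 8.40% in the control, and YAP1 holds 75.6% of the coactivator level with overexpression and 70.5% in the control.

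VGLL4, the antagonist of YAP1 at TEAD factors, was lower with overexpression. VGLL4 (ENSG00000144560, chr3:11556070-11771350, minus strand) had 4.25 FPKM (3.88 to 4.64) in the overexpression library and 5.31 FPKM (4.90 to 5.76) in the control, a ratio of 0.799 (0.708 to 0.902). Its 499 fragments with overexpression and 600 in the control rest on an exon length of 7207 bases, the one length near the 7236 bases of GENCODE 29 that gave whole fragments in both libraries. By merged exon lengths, the level of YAP1 per VGLL4 was 3.99 (3.61 to 4.42) with overexpression and 1.49 (1.34 to 1.66) in the control. This is a 2.67-fold difference (2.30 to 3.10), or 1.66-fold with the GC content trend subtracted. The difference between the libraries does not depend on the lengths, but the level in each library does. With longest coding transcripts of 5398 bases for YAP1 and 3725 for VGLL4, VGLL4 lies above YAP1 in the control. Genes on the other strand, ATG7 among them, cover 23.7% of the exon bases of VGLL4. VGLL1, another gene of the family, had 0 fragments with overexpression and 1 in the control.

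The order of the levels as deposited differed between the libraries. With overexpression the order was TEAD4, TEAD2, YAP1, TEAD1, TEAD3, WWTR1 and VGLL4, and in the control it was TEAD4, TEAD2, TEAD3, YAP1, TEAD1, VGLL4 and WWTR1. By the merged exon lengths used, neighbours differed beyond counting error except TEAD2 and YAP1 in the overexpression library. There TEAD2 was 1.02 times YAP1 (0.938 to 1.11). These orders depend on the lengths. With overexpression TEAD3 had 452 fragments on a longest coding transcript of 2983 bases and WWTR1 752 on 5030, which puts them close together. In the control VGLL4, with 600 on 3725, then lies above YAP1, with 783 on 5398, and TEAD1, with 966 on 8477. With the GC content trend subtracted, the TEAD1 over TEAD3 difference was 1.42-fold on a control ratio of 0.439, which leaves TEAD1 below TEAD3. The log2 ratios of WWTR1 and VGLL4 were then -0.081 and -0.075, which leaves WWTR1 below VGLL4. Across all 21 pairs of the 7 genes, the ratio between the genes as deposited differed between the libraries beyond counting error in 15 and did not in 6. No such share was worked out for pairs of other genes, so the count cannot be read as particular to these 7. The pairs also reuse the same genes. YAP1 over TEAD1 was among those 6, at 1.32 (1.24 to 1.41) with overexpression and 1.32 (1.203 to 1.46) in the control. The 2 genes lie on different arms of chromosome 11.

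To set the 7 genes against all others, 2-fold was used as the threshold, a log2 ratio of FPKM + 1 (overexpression over control) of at least 1 in size, among genes with a mean of at least 1 FPKM. All 7 genes passed that filter, as did 11945 of the 28303 listed. By that rule 1 of the 7, YAP1, was at least 2-fold higher, beside 11.9% of all genes past the filter, and 0 were 2-fold lower, beside 0.444%. YAP1 stood at the threshold, with a log2 ratio of 1.01 and an interval of 0.89 to 1.12. TEAD1 was just under it at 0.98 (0.88 to 1.09), and WWTR1 was at 0.59. Without the added 1 FPKM, 2 of the 7 were at least 2-fold higher, beside 19.3% of the genes past the filter that were above 0 in both libraries. The log2 ratio was -0.39 for TEAD2, -0.54 for TEAD3, -0.51 for TEAD4 and -0.27 for VGLL4. The median of the 7 was -0.27, against 0.10 over all genes past the filter. Of those genes, 88.3% had a lower log2 ratio than YAP1, 87.7% a lower one than TEAD1 and 7.62% a lower one than TEAD3. Trimmed-mean (TMM) scaling lowers the log2 ratio of FPKM of every gene by 0.21, and the direction of each of the 7 genes was the same with it, with median-of-ratios scaling and with upper-quartile scaling.

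The log2 ratio moved with the GC content of the transcript, in these genes as over all genes. The 3 genes that were higher have AT-rich transcripts, with a GC content of 43.5% in YAP1, 40.9% in WWTR1 and 41.3% in TEAD1. The 4 that were lower have GC contents of 58.4% in TEAD2, 59.8% in TEAD3, 60.4% in TEAD4 and 52.1% in VGLL4. Spearman's rho between log2 ratio and GC content was -0.821 over the 7 genes and -0.801 over 11913 genes past the filter, which share the same 2 libraries and are not independent. In YAP1 and WWTR1 the AT-rich part is the 3′ UTR, of 3483 and 3570 bases at 34.8% and 34.9% GC, since their coding sequences are at 55.9% and 57.9%. TEAD1 has a 3′ UTR of 7261 bases at 40.3% GC, against 195 bases at 58.5% in TEAD4, 724 at 51.9% in TEAD2 and 1447 at 57.6% in TEAD3. The part of base composition in the difference between the libraries was not tested and, with 1 library per group, it cannot be told apart from the plasmid.

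**Figure D3:**
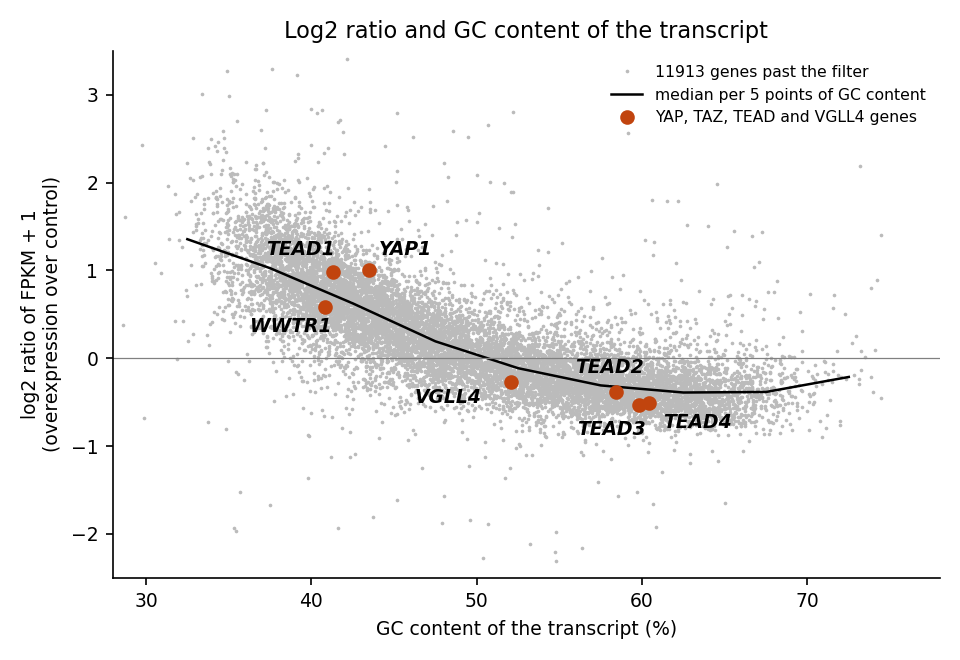
Log2 ratio of FPKM + 1, overexpression over control, against the GC content of the transcript (%), for genes past the filter (grey), with the median per 5 percentage points (line, bins of at least 20 genes) and the 7 genes (labelled). YAP1 and TEAD1 lie above the line and the other 5 lie on it or below it; 12 genes fall outside the axes.

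Set beside genes of like GC content, YAP1 and TEAD1 lay on the high side. Among 968 genes within 1 percentage point of the GC content of YAP1, the middle log2 ratio was 0.52, and the quartiles were 0.29 and 0.75. Of these, 7.23% were at least 2-fold higher and 92.9% had a lower log2 ratio than YAP1. For TEAD1 the median of 1035 such genes was 0.73 and 75.4% lay below it, and for WWTR1 the median of 1027 was 0.76 and 31.0% lay below it. The medians beside TEAD2, TEAD3, TEAD4 and VGLL4 were -0.33, -0.37, -0.37 and -0.11, and 39.6%, 18.9%, 25.1% and 24.5% of those genes lay below the gene. A smooth trend on GC content was then subtracted in a way that left the median over all genes at 0.10. After it the log2 ratio was 0.59 for YAP1 and 0.36 for TEAD1, and those of the other 5 genes lay between -0.094 and 0.030. By this measure 0 of the 7 were at least 2-fold higher, beside 1.85% of 11913 genes, and 0 were lower, beside 0.705%. The distance from the lowest to the highest of the 7 was 0.68 after subtraction and 1.54 before it.

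**Figure D4:**
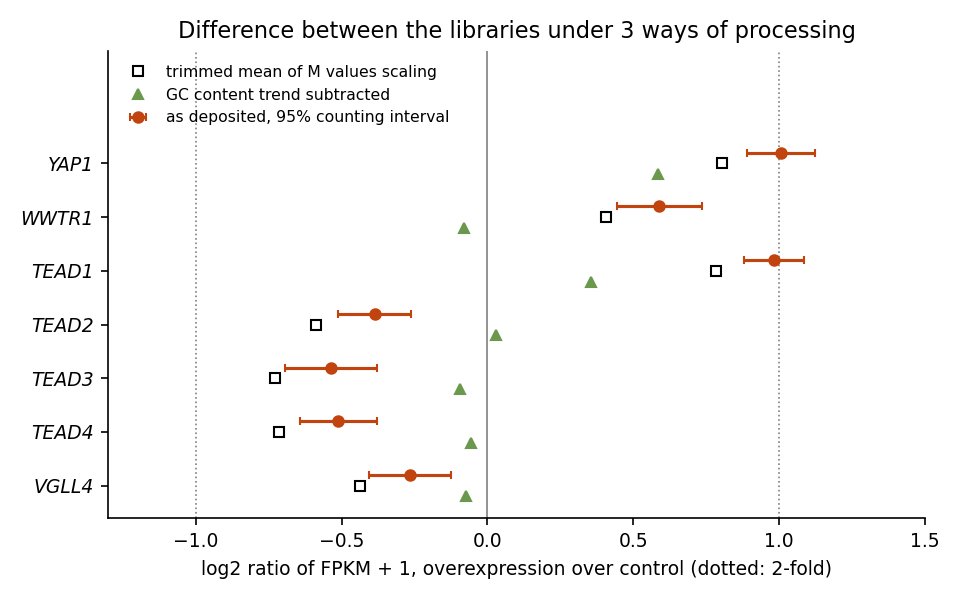
Log2 ratio of FPKM + 1, overexpression over control, of each gene as deposited (circles, with 95% counting intervals), with TMM scaling (squares) and with the GC content trend subtracted (triangles). Dotted lines mark 2-fold. YAP1 at 0.59 and TEAD1 at 0.36 stay highest after subtraction, and the other 5 triangles lie between -0.094 and 0.030.

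Because LINC01133 has been studied with miR-145-5p, the 3′ UTRs of the 7 genes were searched for its seed match, AACTGGA, on the transcript strand. The mature miRNA is printed from RefSeq (GRCh38.p14, chr5:149430661-149430683, plus strand) with its seed, bases 2 to 8, in capitals.
hsa-miR-145-5p: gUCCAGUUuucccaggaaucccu
The match occurred in 2 of the 7, once in TEAD1 from base 4832 of the 3′ UTR and once in VGLL4 from base 705, shown with the match in capitals.
TEAD1: gtaaaatccgaAACTGGAcacaagtcagt
VGLL4: caggtgcttgcAACTGGActgcagactct
Of 10299 3′ UTRs of genes past the filter, 15.4% held the same letters. TEAD1 was higher with overexpression and VGLL4 lower. The searched 3′ UTRs of YAP1 and WWTR1 held no such match, which says only that these letters are not in those sequences.

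Among the genes of the kinase cascade that restrains YAP1 and TAZ, 14 of 18 had a log2 ratio above 0, beside 55.4% of all genes past the filter. In this list 3 passed the 2-fold threshold upward, beside 11.9% of all genes, and 0 downward, beside 0.444%. The median was 0.57, against 0.10 over all genes, and the median GC content of the list was 44.0%. The 3 were the LATS activators MOB1B and MOB1A and the upstream kinase TAOK1. MOB1B had 4.93 FPKM with overexpression and 0.783 FPKM in the control (ratio 6.29, 5.13 to 7.78). TAOK1 had 8.92 FPKM with overexpression and 2.34 FPKM in the control (3.81, 3.49 to 4.17), and MOB1A had 35.5 FPKM with overexpression and 12.7 FPKM in the control (2.79, 2.62 to 2.97). The scaffold gene RASSF1 had 4.96 FPKM with overexpression and 8.86 FPKM in the control (0.560, 0.484 to 0.648). The cadherin DCHS1 had 1.185 FPKM with overexpression and 1.785 FPKM in the control (0.664, 0.554 to 0.795), and its log2 ratio turned to 0.13 with the GC content trend subtracted. With that subtraction the median of the list was 0.23, against 0.096 over all genes. By that measure 0 were 2-fold higher, beside 1.85% of all genes, while 7 were without the added 1 FPKM, beside 19.3%.

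Genes that hold YAP1 and TAZ in the cytoplasm or mark them for degradation had a median of 0.26, against 0.10 over all genes. Of 16 past the filter among 17, 11 had a log2 ratio above 0, beside 55.4% of all genes. None was 2-fold higher, beside 11.9%, or 2-fold lower, beside 0.444%. The largest ratio, 1.91 (1.84 to 1.99), was that of the 14-3-3 gene YWHAZ, with 52.5 FPKM with overexpression and 27.4 FPKM in the control. The junction gene TJP1 had 10.1 FPKM with overexpression and 5.84 FPKM in the control (1.74, 1.61 to 1.88), and the 14-3-3 gene YWHAQ 229.4 FPKM with overexpression and 151.5 FPKM in the control (1.51, 1.47 to 1.56). The smallest were those of SFN, another 14-3-3 gene (0.641, 0.442 to 0.922), and of the kinase CSNK1E (0.780), which gave no whole fragments and has no interval. With the GC content trend subtracted the log2 ratio of CSNK1E turned to 0.067, that of SFN was 7.8e-05 and the median was 0.18. The median over all genes was then 0.096, so CSNK1E and SFN stayed below it.

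Among nuclear partners and cofactors, 18 of 21 passed the filter. Of these, 10 had a log2 ratio above 0, a share close to the 55.4% of all genes. Their median was 0.24, against 0.10 over all genes. The 2-fold threshold was passed upward by 2, ZEB1 and NCOA2, a share close to the 11.9% of all genes, and downward by 0, beside 0.444%. With TMM scaling or with the GC content trend subtracted, 0 passed it upward, beside 7.71% and 1.85%. ZEB1, a repressor that can bind YAP1, had 7.82 FPKM with overexpression and 3.06 FPKM in the control (2.55, 2.28 to 2.87). The coactivator NCOA2 had 14.7 FPKM with overexpression and 6.33 FPKM in the control (2.32, 2.16 to 2.51). SMAD4, a mediator of TGF-beta signalling, had 5.10 FPKM with overexpression and 2.32 FPKM in the control, with an interval of the ratio of 1.97 to 2.46. JUN, whose AP-1 sites often lie beside TEAD sites, had 3.40 FPKM with overexpression and 6.85 FPKM in the control (0.496, 0.415 to 0.590). Its log2 ratio was -0.84 with the added 1 FPKM. Without it JUN was just past 2-fold lower, as were 126 of 11868 genes. TP73, a relative of p53 that binds YAP1, had 1.53 FPKM with overexpression and 2.62 FPKM in the control (0.584, 0.480 to 0.710).

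None of the target genes of YAP1, TAZ and TEAD past the filter reached 2-fold in either direction, beside 11.9% of all genes upward and 0.444% downward. Of 23 listed, 18 passed the filter, and 9 of those had a log2 ratio above 0, beside 55.4% of all genes. Their median was 0.02, against 0.10 over all genes. It was -0.16 with TMM scaling, against -0.073 over all genes, and 0.12 with the GC content trend subtracted, against 0.096 over all genes. By this last measure 13 of the 18 were above 0. The share of all genes above 0 was not worked out there, so that count is not a result about the targets. Values ran from a log2 ratio of -0.31 for CCN1 to 0.63 for TGFB2. The matricellular gene CCN1 had 6.02 FPKM with overexpression and 7.70 FPKM in the control (0.782, 0.657 to 0.931), and the stress gene GADD45A had 10.8 FPKM with overexpression and 13.5 FPKM in the control (0.795, 0.690 to 0.915). The growth factor gene TGFB2 had 2.64 FPKM with overexpression and 1.35 FPKM in the control (1.96, 1.55 to 2.48), and its log2 ratio turned to -0.22 with the GC content trend subtracted. ASAP1 had 10.96 FPKM with overexpression and 7.49 FPKM in the control (1.46, 1.35 to 1.59), and DOCK5 had 2.74 FPKM with overexpression and 1.75 FPKM in the control (1.57, 1.39 to 1.77). CCN2, the best-known target, was below the filter at 0.734 FPKM with overexpression and 0.955 FPKM in the control, with an interval of the ratio of 0.451 to 1.30. ANKRD1 had 1 fragment with overexpression and 0 in the control. RBMS3, also under the filter, had 0.562 FPKM with overexpression and 0.202 FPKM in the control (2.78, 2.05 to 3.82). Its transcript has a GC content of 36.6%. NT5E (ratio 0.961, 0.221 to 4.18) and NUAK2 (1.01, 0.504 to 2.05) were under the filter too. AMOTL2, LATS2 and PTPN14 are both targets and regulators and stand on more than 1 list.

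**Figure D5:**
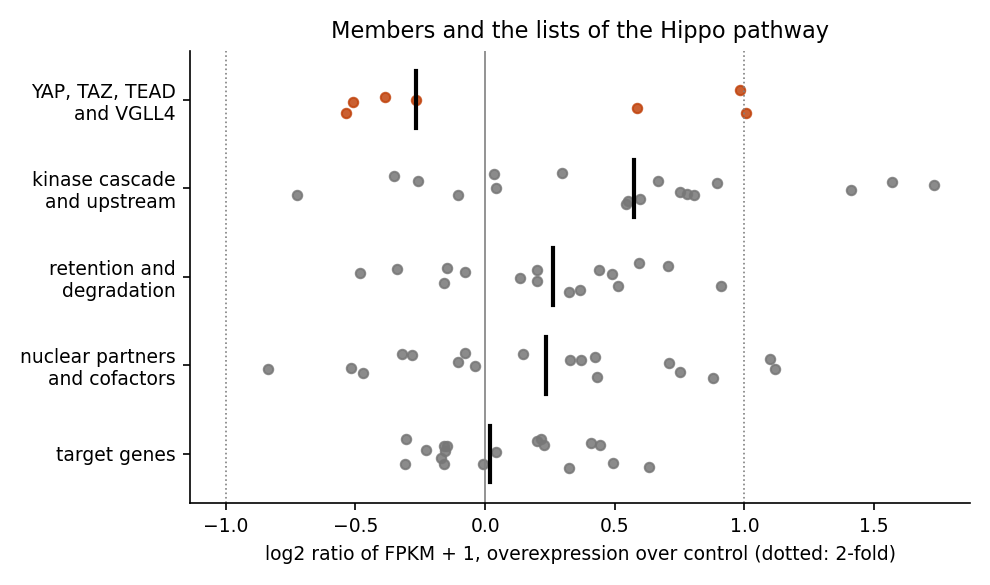
Log2 ratio of FPKM + 1, overexpression over control, for the 7 genes (top row) and for genes past the filter on 4 lists of the Hippo pathway, with the median of each row as a bar. The target genes lie between -0.31 and 0.63 around a median of 0.02, and the kinase cascade has a median of 0.57. The median GC content was 49.9% for the target genes and 44.0% for the kinase cascade. With the GC content trend subtracted, their median log2 ratios were 0.12 and 0.23.

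YES1, a kinase that phosphorylates YAP1, had 26.95 FPKM (25.8 to 28.1) with overexpression and 6.48 FPKM (5.94 to 7.07) in the control. Its log2 ratio of 1.90 (ratio 4.16, 3.78 to 4.58) was larger than that of YAP1 and was 0.94 with the GC content trend subtracted. The protein-coding gene nearest to each of the 7 in the levels of both libraries, by distance on the log2(FPKM + 1) scale, was DDX18 for YAP1 (0.016), C6orf120 for WWTR1 (0.013), VMA21 for TEAD1 (0.0074), DNTTIP1 for TEAD2 (0.0093), NAA38 for TEAD3 (0.014), SBF1 for TEAD4 (0.0098) and ATP6V0A1 for VGLL4 (0.0022). The transcripts of DDX18, C6orf120 and VMA21 had GC contents of 39.7%, 45.8% and 37.2%, and those of DNTTIP1, NAA38, SBF1 and ATP6V0A1 lay at 56.4%, 58.6%, 64.4% and 51.5%. These genes were picked for like levels in both libraries, so their log2 ratios are near those of the members by construction. Their GC contents therefore add nothing separate to the trend over all genes.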

How the data were processed

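RNA was sequenced from 1 overexpression and 1 control library of HGC27, after poly(A) selection, per the labels' protocols. The deposited files give each gene a value in each library, which the authors normalized without naming the unit in the labels or headers. The deposited values were read as FPKM: multiplied by merged exon length (GENCODE 29) they are whole multiples of a common step, within 0.002 fragments, for 94.0% of genes with a length in the overexpression and 94.3% in the control library. That step gave the fragments and the depth. Bowtie2 2.2.3, HISAT2 2.1.0, HTSeq 0.6.0 and GRCh38 were named, per the submitters' processing notes; the annotation release is not given in the sources used here.

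Intervals are 95% and exact, Poisson for levels, Clopper-Pearson for ratios and the conditional odds ratio for ratios of ratios, with SciPy 1.17.1. Since PCR copies were not marked by molecular identifiers, fragments may not be independent molecules. Alternatives changed the scaling, pseudocount, filter, fold threshold, trend and length. The step estimate, trend and scaling were tested on simulated data. GC content is that of each gene's longest coding GENCODE transcript holding a 3′ UTR, known for 99.7% of genes past the filter, and the trend was a lowess fit (span 0.3, statsmodels 0.14.6). Coding sequences are those of the longest complete coding transcript, and translated proteins were aligned with Biopython 1.88. Symbols were matched for 27911 of 28303 identifiers. The members, gene lists, filter and fold threshold were chosen with earlier results of these data known. Named genes were the members, LINC01133, the nearest gene to each member, and per list the 3 largest and 2 smallest log2 ratios. Other named genes fall outside this rule and were named with values seen. They are YES1, WWTR1-AS1, CCN2, ANKRD1, RBMS3, NT5E, NUAK2 and VGLL1, marker genes at 0, overlapping genes, and genes on more than 1 list.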

Additional observations from a re-analysis of the deposited data

How the results depend on the processing

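No paired analysis was possible because there was 1 library on either side. The number of the 7 genes past 2-fold upward, 1 as reported, was 0 by median-of-ratios, TMM and upper-quartile scaling and 0 with the GC content trend, or those on GC content and length, subtracted. It became 2 with a pseudocount of 0.1 FPKM, a prior of 10 fragments or, chosen after seeing the data, no pseudocount, and 3 at 1.5-fold. The share of all genes past the threshold moved alike: it was 11.9% as reported, 7.88%, 7.71% and 4.88% by the 3 scalings, 1.85% and 1.70% with the subtractions, 18.8%, 16.6% and 19.3% with the pseudocount, the prior and no pseudocount, and 26.8% at 1.5-fold. The median of -0.27 became -0.43, -0.44 and -0.60 by the 3 scalings in that order, -0.32 with each of the 3 other pseudocounts or priors, -0.39 at a mean of at least 5 FPKM, -0.057 with the GC content trend subtracted and 0.019 with both trends. The count of 3 in the kinase cascade became 7 with a pseudocount of 0.1 or none, 6 with the prior and 0 with either subtraction. The count of 2 among nuclear partners became 0 by each of the 3 scalings and with either subtraction, and 3 with the pseudocount of 0.1, the prior or no pseudocount. Under the 3 scalings, the other pseudocounts and the prior, the log2 ratio ran from 0.61 to 1.09 for YAP1, 0.24 to 0.73 for WWTR1, 0.60 to 1.097 for TEAD1, -0.78 to -0.40 for TEAD2, -0.91 to -0.58 for TEAD3, -0.91 to -0.53 for TEAD4 and -0.60 to -0.32 for VGLL4. Signs reversed for WWTR1 (-0.081 with the GC content trend subtracted, -0.12 with both), TEAD2 (0.030 and 0.067) and TEAD4 (0.019 with both). The values of TEAD2 and TEAD4 stayed below the median over all genes, which either subtraction left at 0.096. Medians reversed for retention and degradation genes (-0.13) and nuclear partners (-0.061) by upper-quartile scaling, and for target genes by median of ratios (-0.15), TMM (-0.16) and upper quartile (-0.32). These scalings move all genes alike, and the median over all genes turned too, to -0.065, -0.073 and -0.23, so those reversals say nothing particular to the lists. With the length of the longest coding transcript, YAP1 held 68.3% of the coactivator level with overexpression and 62.5% in the control, and TEAD1 21.4% of the TEAD level with overexpression and 8.27% in the control. Ratios between genes with the GC content trend subtracted were also chosen after seeing the data, and the YAP1 to WWTR1 difference was then 1.68-fold in place of 1.29-fold. The cause of the other moves was not tested. Precision is poorest for genes with few fragments, among them CCN2, and without replicates no spread between cultures is known.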
